A study of Mus musculus with 3 samples.

Results

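The numbered zinc finger genes of the mouse, whose symbol is Zfp followed by digits only, were examined at their CCGG sites. Zfp42, a pluripotency marker, was left out. A CCGG site was taken when any of the 3 MethylRAD libraries listed it on an autosome within a gene of this name or within 1 kb of it. In total, 6209 of the 996514 autosomal CCGG sites met this rule, and 336 of the 357 genes had at least 1 listed site. The sites were split into 826 promoter sites (within 1 kb of a start site), 1029 last exon sites and 4354 sites in the rest of the genes. Of these, 5011 were listed in undifferentiated cells, 5266 in untreated cells and 5346 in treated cells.

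MethylRAD reads come from short fragments that the enzyme FspEI releases around a methylated cytosine, so that reads accumulate at methylated CCGG. A site without reads is taken as a sign of little methylation only, and a CCGG next to a methylated one can be read from the fragment of its neighbour. E14Tg2A, an established line of mouse embryonic stem cells (ESCs), was kept in medium with leukemia inhibitory factor (LIF) for the undifferentiated sample. The untreated sample was the same line on day 7 after LIF was withdrawn and retinoic acid was added, and the treated sample had, in addition, received 3 mM pargyline, an inhibitor of the histone demethylase LSD1. The day and the dose come from the study's methods. The sample labels give neither, and the deposited data of both differentiated samples carry the code RA4, which is not explained, so the time point is less certain than the term day 7 used here implies. Each condition was 1 library, so differences could not be set against a spread between replicates and no test was made. Intervals (95%) cover counting error only and treat reads as independent. PCR copies of a fragment were not told apart, and a fragment can be counted at neighbouring sites, so the intervals can be too narrow even for counting error. A change in the share of cells with a methylated site and a change in the number of methylated copies per cell cannot be told apart in bulk DNA. These libraries hold no RNA, so cell type markers were not checked.

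Most numbered Zfp genes encode C2H2 zinc finger proteins, in which an array of fingers reads DNA and neighbouring fingers are joined by a short conserved linker. Many also carry a KRAB domain, which recruits TRIM28 and, through it, histone and DNA methylation to transposable elements. These genes lie in clusters that grew by duplication, their promoters are often CpG rich, and the last exon usually encodes the entire finger array. CpG-rich promoters are generally free of methylation, whereas gene bodies are generally methylated.

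The names matched the proteins for most genes. A C2H2 finger pattern was found in the protein of all but 15 genes, with a median of 10 and a maximum of 36 fingers. Zfp36, which encodes an mRNA decay factor with fingers of another type, and Zfp503, a regulator of striatal development, were among the 15. A KRAB A box pattern was found in 211 genes. Of the 357 genes, 189 lay in 30 chains of 3 or more genes with starts at most 250 kb apart, and chromosome 7 alone held 89 genes. A start site of another protein-coding gene lay within 1 kb of a start site of 34 of the genes, and 23 sites belonged to more than 1 numbered Zfp gene. Sites within 32 bp of another, which can be read from the same fragment, made up 10.6% of the 6209.

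The lists held 25767119 to 36654600 CCGG reads per library, of which 142231 to 202541 were at numbered Zfp genes. These made up 0.548%, 0.553% and 0.552% of the CCGG reads. Reads were scaled per 1000000 CCGG reads of the library. Read numbers given for a gene or site are the deposited counts, in the order undifferentiated, untreated, treated, and ratios are on the scaled values. On this scale, the 720407 autosomal CCGG sites listed in every library had a median log2 ratio over the undifferentiated sample of 0.08 for untreated and 0.07 for treated cells, and values close to these are not read as a difference.

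Sequences are shown for the sites on which the comparisons turn, as 30 bases of the GRCm38 reference on the strand of the gene, 5′ to 3′, with the CCGG in capitals. Sites missing from the undifferentiated list were ranked by scaled reads on day 7. The first set shows promoter sites: the deepest of all 6209 sites (Zfp992, chr4:146448967-146448996, 43 bp from the start site), the 3 deepest of those missing from the undifferentiated list (Zfp78, chr7:6370555-6370584, Zfp7, chr15:76879125-76879154, and Zfp647, chr15:76917984-76918013) and the deepest promoter site listed there alone (Zfp773, chr7:7137542-7137571).
Zfp992: gctgaggaggcttCCGGattaattttgagt
Zfp78: atacaaacaaaccCCGGaaaaacacaaaat
Zfp7: tcagccacacttcCCGGccctgcctctcag
Zfp647: aagatggcagcagCCGGgcttctaccgctg
Zfp773: tgtgccaccatgcCCGGcgcatattcttct

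The second set shows last exon sites within the linker that joins neighbouring fingers, where the Thr and Gly codons together spell the motif. Shown, 1 per gene, are 5 of the 6 deepest such sites, those of Zfp952 (chr17:33003692-33003721), Zfp612 (chr8:110089732-110089761), Zfp26 (chr9:20437227-20437256), Zfp810 (chr9:22278897-22278926) and Zfp157 (chr5:138456313-138456342). The last line is a linker site of Zfp180 (chr7:24105586-24105615) that was listed in the undifferentiated sample alone.
Zfp952: gagcgaattcacaCCGGagagaaaccctac
Zfp612: cagcgagcccacaCCGGagaaaagccgtat
Zfp26: atgcgaactcacaCCGGagagaaaccatat
Zfp810: ctgagaattcacaCCGGtgagaagccttat
Zfp157: cagcgaattcataCCGGcgagaagccttat
Zfp180: cagaggactcacaCCGGcgagaagcccttc

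Relative to all CCGG reads, the promoters carried more reads on day 7, and the remainder of the genes did not. Promoter reads per 1000000 CCGG reads were 298.5, 348.7 and 412.4. The log2 ratio over the undifferentiated sample was 0.22 (0.19 to 0.26) in the untreated sample and 0.47 (0.43 to 0.51) in the treated sample. At last exons the same ratios were 0.05 (0.03 to 0.07) and 0.02 (0.00 to 0.05), and in the rest of the genes -0.01 and -0.03. Promoters of all other autosomal protein-coding genes gave 0.12 and 0.29, and 0.10 and 0.39 without their 7 sites of more than 1000 reads, which held 981028 reads in the undifferentiated sample alone. No promoter site of a numbered Zfp gene was as deep, and taking such sites out of the totals moved the Zfp ratios to 0.23 and 0.48. The direction at promoters depended on the scaling, because scaling to the mapped reads behind the deposited RPM values gave -0.09 and -0.23. On that scale the last exon ratios were -0.27 and -0.67, so the promoters still stood above the last exons of the same genes.

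The number of promoter motifs that were listed showed the same order. The promoters held 3177 reference CCGG, of which 348 (10.95%) were listed in undifferentiated, 16.7% in untreated and 19.8% in treated cells. Other protein-coding genes had more of their promoter motifs listed, with 16.96%, 22.7% and 26.8%. In last exons, 71.8%, 72.8% and 72.5% of 1204 motifs were listed, and in the rest of the genes 62.6%, 63.6% and 63.2% of 5903 motifs. The 30 bases around the motif occurred once in the genome for 94.8% of promoter motifs and 95.9% of last exon motifs, but for 83.4% of those in the rest. The authors counted only reads that mapped to 1 place in the genome.

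**Figure D1:**
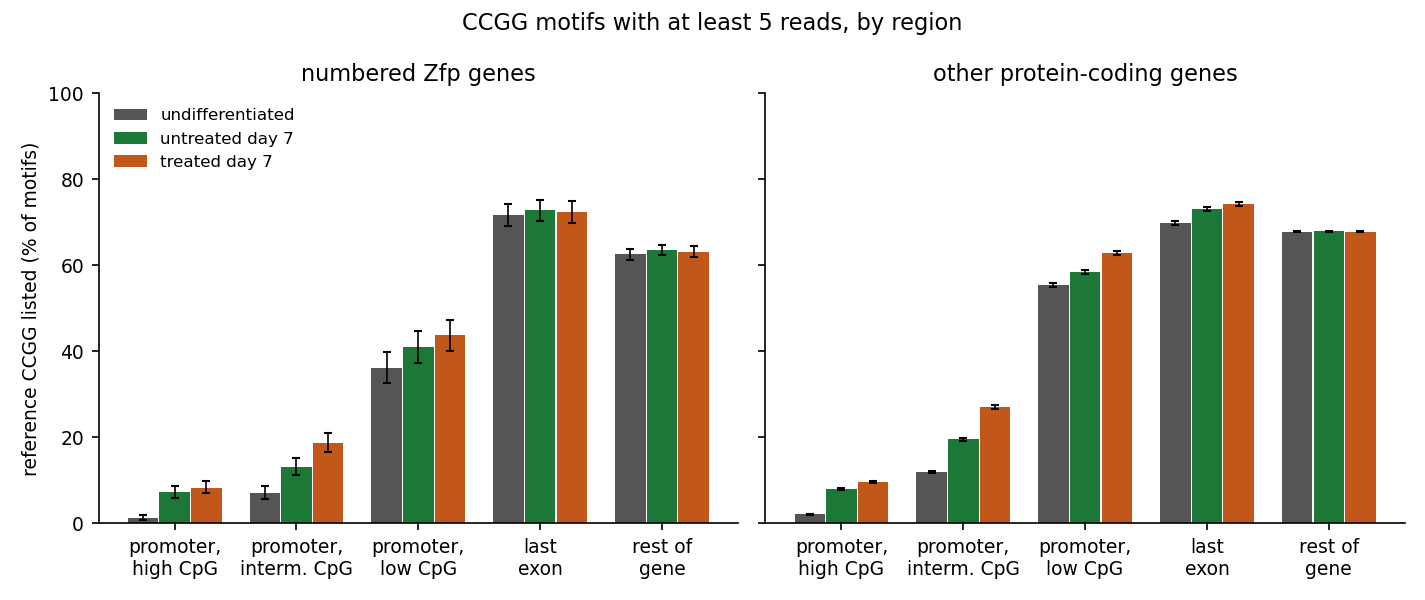
Percent of reference CCGG motifs listed with at least 5 reads (y axis) in the undifferentiated, untreated and treated libraries, by region (x axis), for numbered Zfp genes (left) and other protein-coding genes (right). Bars are shares with 95% Wilson intervals, which cover counting error only; the high CpG promoters of the Zfp genes go from 1.20% to 7.15% and 8.28%, whereas their last exons stay between 71.8% and 72.8%.

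CpG content separated the promoter sites. In windows of high CpG content, 1.20% (0.742 to 1.95%) of 1329 motifs were listed in undifferentiated cells, 7.15% (5.88 to 8.66%) in untreated cells and 8.28% (6.91 to 9.88%) in treated cells. Reads at these sites numbered 114, 815 and 973, which gave log2 ratios of 2.62 and 3.39 over the undifferentiated sample. The corresponding ratios of other protein-coding genes were 1.42 and 2.10, or 1.49 and 2.18 without a single site of more than 1000 reads. These genes had more of their high CpG motifs listed in every library, with 2.09%, 7.91% and 9.58% of 77498 motifs. The undifferentiated value of the Zfp genes rests on 16 listed motifs, most of them near the cutoff of 5 reads. In windows of intermediate CpG content, 6.96%, 13.04% and 18.6% of 1150 motifs were listed, with log2 ratios of 0.30 and 1.09. Other genes gave 0.15 and 0.31 there, but 0.33 and 1.01 without 6 sites of more than 1000 reads, close to the numbered Zfp genes. In low CpG windows, where 36.1%, 41.0% and 43.7% of 698 motifs were listed, the ratios were 0.12 and 0.19, compared with -0.02 and 0.13 in other genes.

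Promoter sites listed on day 7 alone were shallow. The 253 of them present in the untreated library and missing from the undifferentiated list had a median of 7 reads, and 78 of them had at least 10. The 343 such sites of the treated library also had a median of 7 reads, and 98 had at least 10. In the other direction, 69 promoter sites of the undifferentiated list were missing from the untreated list and 58 from the treated list, with 24 and 26 at 10 or more reads. The 253 and 343 sites made up 30.6% and 41.5% of the promoter sites, where other genes had 25.4% and 37.4%, and the 69 and 58 made up 8.35% and 7.02%, where other genes had 7.89% and 7.47%. A site under 5 reads was not listed. When each unlisted site was given 4 reads, the most that this cutoff allows, the high CpG ratios were 0.42 and 1.06 instead of 2.62 and 3.39, and the intermediate ratios were -0.05 and 0.52. This setting was not run for the other genes. On the mapped-read scale the high CpG ratios were 2.31 and 2.69 and the intermediate ratios -0.02 and 0.39, whereas the low CpG ratios went below 0, to -0.20 and -0.50.

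The read ratios were largest next to the start site. Within 100 bp of a start site, 4.38%, 11.8% and 13.4% of 821 motifs were listed, with log2 read ratios of 0.86 (0.75 to 0.98) and 1.32 (1.21 to 1.44). Without the Zfp992 site shown above, these ratios were 0.74 and 1.31. At 100 to 250 bp the ratios were 0.41 and 0.91, and at 250 to 500 bp they were 0.00 and 0.41. The shares of listed motifs rose there too, to 5.73%, 12.6% and 15.1% of 908 motifs at 100 to 250 bp. At 250 to 500 bp they were 9.58%, 15.2% and 19.7% of 741 motifs. Beyond 750 bp, where 31.5%, 34.8% and 36.0% of 267 motifs were listed, the ratios had come down to 0.05 and 0.09. The treated ratio was above the untreated ratio within 500 bp of the start, and both were nearly the same at 500 to 750 bp (0.16 and 0.17). With each unlisted site at 4 reads, the ratios were 0.43 and 0.86 within 100 bp, 0.08 and 0.51 at 100 to 250 bp, and -0.13 and 0.20 at 250 to 500 bp. On the mapped-read scale the ratios were 0.54 and 0.63 within 100 bp, 0.09 and 0.21 at 100 to 250 bp, and below 0 beyond.

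**Figure D2:**
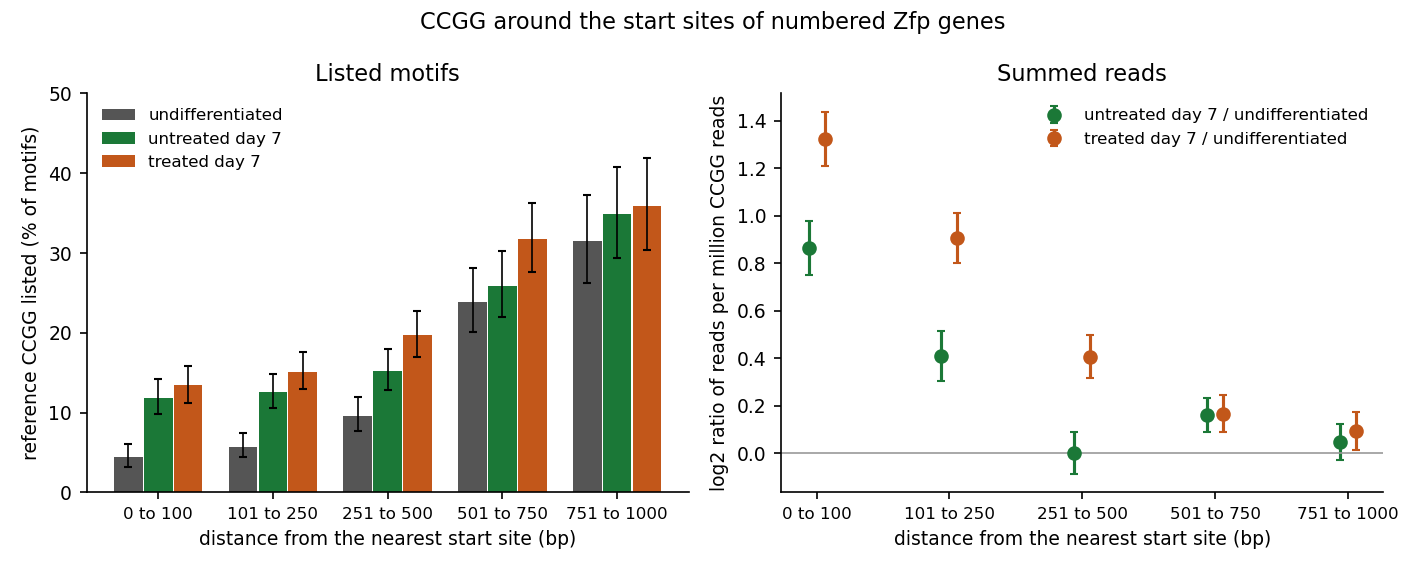
Promoter CCGG of numbered Zfp genes by distance from the nearest start site in bp (x axis). Left, percent of reference motifs listed in each library with 95% Wilson intervals; right, log2 ratio of summed reads per 1000000 CCGG reads over the undifferentiated library with 95% counting intervals, going from 0.86 and 1.32 within 100 bp to 0.05 and 0.09 beyond 750 bp.

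Presence in the 3 libraries differed between the regions in the same way. Of the promoter sites, 268 (32.4%, Wilson interval 29.3 to 35.7%) were listed in every library, compared with 731 last exon sites (71.0%, 68.2 to 73.7%) and 3225 sites in the rest (74.1%, 72.7 to 75.3%). A further 218 promoter sites were found in treated cells alone, 128 in untreated cells alone and 125 in both day 7 libraries, whereas 40 were found in undifferentiated cells alone. As shares of the 826 sites these were 26.4%, 15.5%, 15.1% and 4.84%, and promoter sites of other protein-coding genes gave 23.1%, 11.05%, 14.3% and 4.19%, with 40.3% listed in every library. In last exons, 65 sites (6.32%, other genes 3.86%) were found in undifferentiated cells alone, 47 (4.57%, other genes 5.87%) in treated cells alone and 19 (1.85%, other genes 3.19%) in untreated cells alone.

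Gene by gene, a promoter or last exon was compared where at least 1 of the 2 libraries had 20 reads in it, and a gene was called at a difference of 2-fold or more in scaled reads, with a region at 0 set to 4 reads. Between the untreated and the undifferentiated sample, 157 promoters were compared, of which 41 (26.1%) were at least 2-fold higher in the untreated sample and 10 (6.37%) at least 2-fold lower. Among all autosomal protein-coding genes these shares were 20.8% and 8.09%. Of the 41, 19 were at 0 in the undifferentiated sample and rest on the 4 reads set there, as do 659 of the 2273 higher promoters of all genes. Between the treated and the undifferentiated sample, 59 of 159 promoters (37.1%) were higher and 12 (7.55%) lower, compared with 35.0% and 6.77% of all genes. Of the 59, 19 were at 0 in the undifferentiated sample, as were 951 of the 3993 of all genes. On the mapped-read scale the promoter calls became 38 higher (24.2%, all genes 15.3%) and 18 lower (11.5%, all genes 13.4%) for the untreated sample, and 43 higher (27.04%, all genes 21.9%) and 32 lower (20.1%, all genes 19.8%) for the treated sample.

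Between the treated and the untreated sample, 38 of 169 promoters (22.5%) were higher in the treated sample, near the 21.4% of all genes, and 14 (8.28%) were lower, against 4.43% of all genes. On the mapped-read scale these were 21 higher (12.4%, all genes 13.7%) and 25 lower (14.8%, all genes 9.11%). The shares of last exons called were below or near those of all genes, with no test of the difference. The untreated sample was higher than the undifferentiated sample in 12 of 228 last exons (5.26%, all genes 9.94%) and lower in 15 (6.58%, all genes 10.1%). The treated sample was higher than the undifferentiated sample in 21 of 227 (9.25%, all genes 13.9%) and lower in 16 (7.05%, all genes 10.6%). The treated sample was higher than the untreated sample in 11 of 226 (4.87%, all genes 6.58%) and lower in 7 (3.10%, all genes 3.52%). On the mapped-read scale, 9 last exons were higher and 27 lower in the untreated than in the undifferentiated sample (5.95% and 16.1% of all genes), 10 and 65 in the treated than in the undifferentiated sample (6.23% and 32.4%), and 5 and 17 in the treated than in the untreated sample (3.30% and 9.94%).

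The genes at the upper end of the promoter comparisons had few or no reads in undifferentiated cells. Zfp451, which encodes a SUMO ligase, had 5, 73 and 46 promoter reads, over 10 listed sites. Its untreated value was 12.6-fold (5.16 to 39.9) the undifferentiated value. No promoter site of Zfp451 had more than 18 reads, and 9 of its 10 promoter sites were missing from the undifferentiated list. A pair of them, 5 bp apart at chr1:33815439-33815442 and chr1:33815444-33815447, had 11 reads each in the untreated sample and can share fragments.

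Zfp7, a KRAB gene with 16 fingers, had 6, 61 and 74 promoter reads. The site shown above, 121 bp from the start, gave 0, 27 and 36 of these. Zfp7 was 8.77-fold (3.805 to 24.8) higher in untreated and 15.1-fold (6.63 to 42.6) higher in treated than in undifferentiated cells. The Zfp78 site shown above had 0, 30 and 38 reads and the Zfp647 site, 13 bp from the start, 0, 38 and 15. By scaled reads on day 7, the next promoter site missing from the undifferentiated list lay in Zfp563, with 0, 15 and 29 reads. Zfp30 had 9, 68 and 66 promoter reads, and Zfp658 had 12, 83 and 80, of which 6, 83 and 71 came from 1 site 976 bp from the start. In Zfp30 and Zfp658, each day 7 sample lay above the undifferentiated sample.

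Other promoters had no listed site at all in undifferentiated cells. Zfp105 had 0, 48 and 61 promoter reads, with 4 of its 5 sites in a high CpG window within 52 bp of the start. Zfp503 had 0, 15 and 67 reads over 7 sites, and Zfp36 had 0, 21 and 60 reads over 8 sites. With 4 reads for the entire promoter in place of 0, the treated value was 18.7-fold the undifferentiated value for Zfp105, 20.6-fold for Zfp503 and 18.4-fold for Zfp36. Each unlisted site could have held up to 4 reads, so these ratios are not lower bounds, and every promoter site of Zfp36 and Zfp503 had at most 17 reads in any library.

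Among the 38 promoters called higher and the 14 called lower in the treated than in the untreated sample were the following. Zfp503 was 6.35-fold (3.59 to 11.98) higher in the treated than in the untreated sample. Zfp296, a factor known from reprogramming to pluripotency, had 18, 17 and 68 reads, a 5.69-fold difference (3.31 to 10.3) between the day 7 samples. Zfp563, a KRAB gene, had 6, 21 and 65 reads, 4.40-fold more in the treated than in the untreated sample. Zfp819, a KRAB gene linked to the control of transposable elements in ESCs, went the other way, with 10, 56 and 16 reads, and was called lower. Zfp62 also had fewer reads in the treated than in the untreated sample, with 12, 71 and 28, but was short of 2-fold and not called.

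At other promoters a day 7 sample had the lower value. Zfp366, known from dendritic cells, had 167, 91 and 17 promoter reads, so that the treated sample was at 0.125 (0.0711 to 0.206) of the undifferentiated value. A single site of Zfp366, 983 bp from a start site, gave 122, 12 and 0 of these reads. Zfp773 had 111, 30 and 24 promoter reads, and its site shown above gave 31, 0 and 0. Zfp111 had 123, 55 and 36 reads at 2 sites, and both sites were lower on day 7. Zfp787 had 128, 92 and 30 reads, of which 121, 81 and 30 lay at a single low CpG site. Zfp748 had 62, 72 and 17 reads at 1 site, Zfp9 had 56, 28 and 26 reads, and Zfp853 had 72, 35 and 96.

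**Figure D3:**
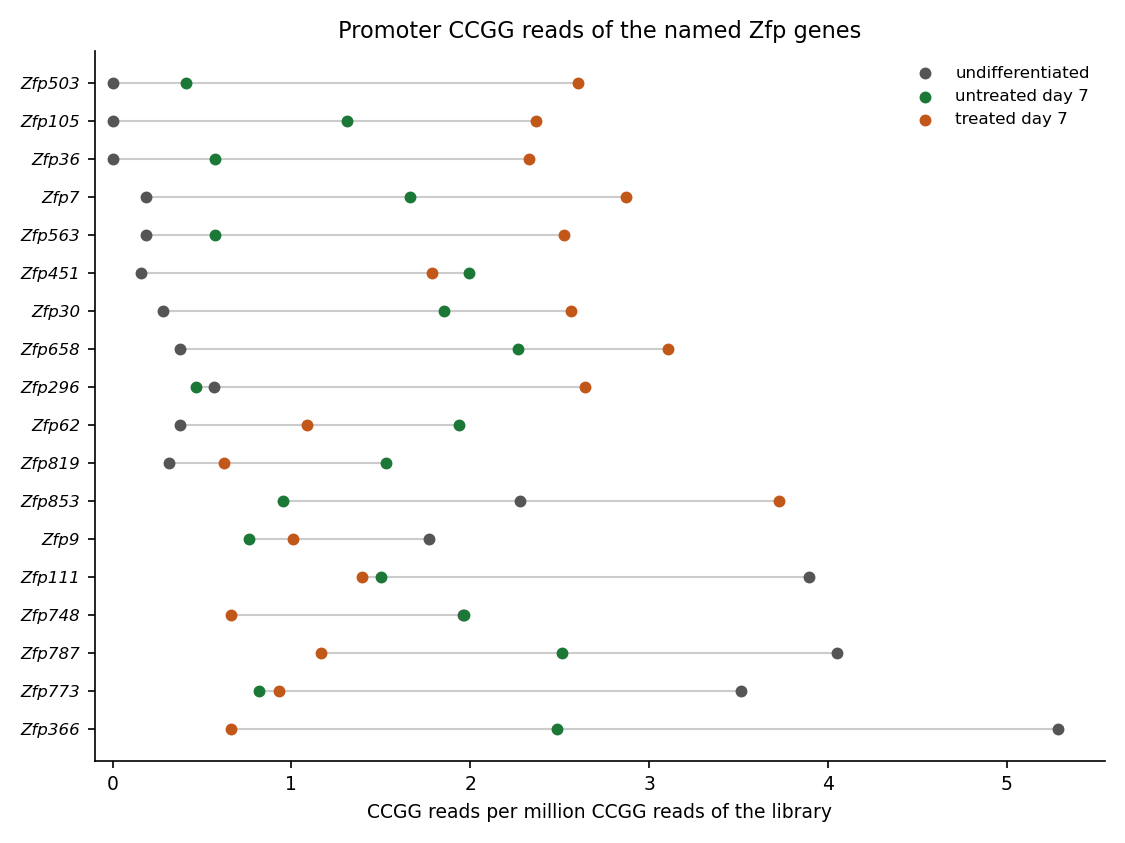
Promoter CCGG reads per 1000000 CCGG reads of the library (x axis) for the 18 genes named by the fixed rule (y axis), with 1 point per library and genes ordered by the ratio of treated over undifferentiated. The upper genes, from Zfp503 to Zfp451, sit below 0.2 in the undifferentiated library, whereas Zfp366, at the bottom, goes from 5.28 to 0.660.

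The last exons named by rule included genes that were higher on day 7. Zfp467 had 0, 88 and 80 last exon reads, over 9 sites, 7 of them in high CpG windows. With 4 reads in place of 0, the ratios of Zfp467 were 19.0 and 24.5, which are not lower bounds for the same reason. Zfp503 had 10, 10 and 71 last exon reads, 10.1-fold (5.18 to 21.97) more in the treated than in the untreated sample, as at its promoter. Zfp599 had 10, 92 and 30 reads, Zfp949 had 24, 98 and 46, and Zfp37 had 19, 70 and 51, each at a single CCGG. Zfp770 had 43, 142 and 91 reads. Zfp683, known from resident T cells, had 20, 35 and 53 reads at 1 site, and Zfp746, which encodes a parkin substrate, had 43, 70 and 110 over 7 sites.

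Other last exons had the lower value in a day 7 sample. KRAB genes made up 9 of the 15 last exons called lower in untreated and 10 of the 16 called lower in treated than in undifferentiated cells, and 116 of 228 and 111 of 227 of those compared. Zfp563 had 64, 18 and 30 reads, in contrast to its promoter, which was highest in the treated sample. Zfp708 had 50, 18 and 8 reads at a single site, and Zfp605 had 110, 57 and 39 at a single site. Zfp709 had 135, 54 and 65 reads, of which 41, 0 and 10 were at a linker site. Zfp872 had 94, 47 and 50 reads, Zfp1 had 62, 33 and 17, and Zfp87 had 67, 51 and 21. Zfp2, without a KRAB pattern, had 64, 112 and 19 reads, 0.241 (0.140 to 0.395) of the untreated value in the treated sample, and Zfp345 had 40, 60 and 11. Both had their highest value in the untreated sample.

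**Figure D4:**
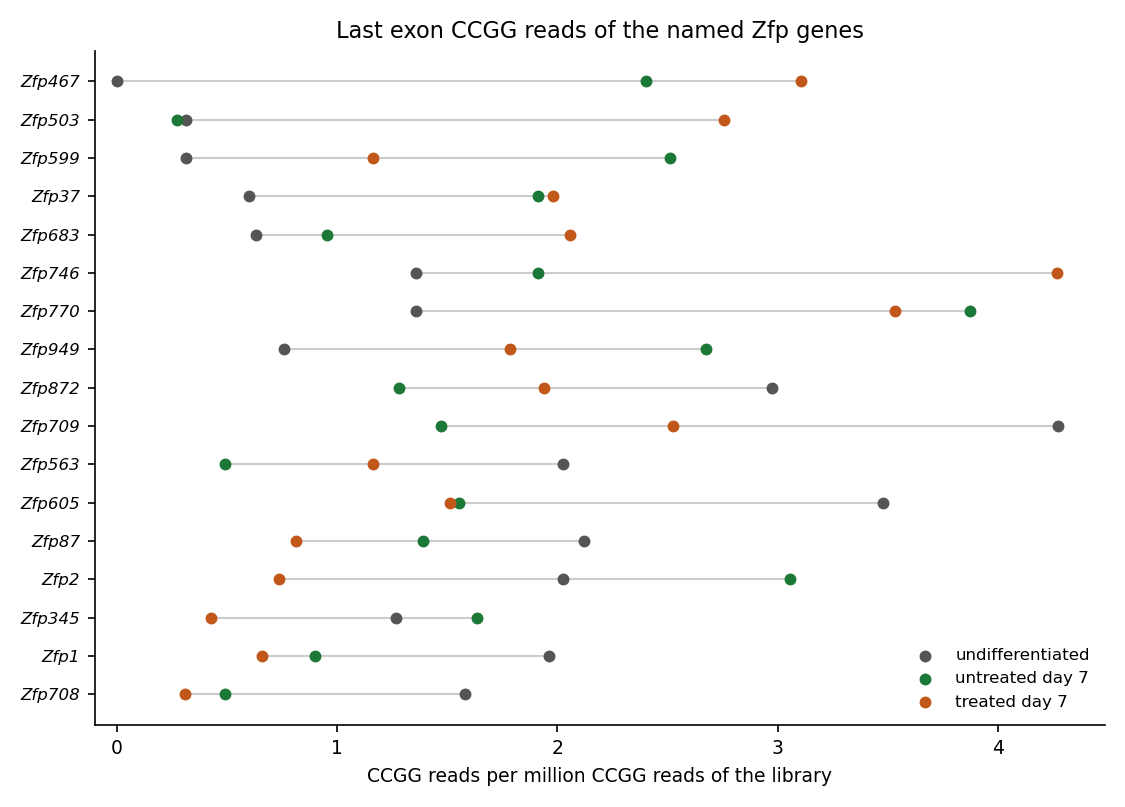
Last exon CCGG reads per 1000000 CCGG reads of the library (x axis) for the 17 genes named by the fixed rule (y axis), with 1 point per library and genes ordered by the ratio of treated over undifferentiated. Zfp467 goes from 0 to 2.40 and 3.10, and Zfp708, at the bottom, goes from 1.58 to 0.491 and 0.310.

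The linker sites differed from the other coding sites of the last exon. The coding sequences held 1762 linkers of the form Thr-Gly-Glu, Lys or Arg, and Pro, and in 172 of them (9.76%), from 99 genes, the Thr codon was ACC and thus completed a CCGG with the Gly codon that follows. Linkers that depart from this form were counted with the other coding motifs. In last exons, 166 motifs of the Thr-Gly form were found. Of these, 78.9% (72.1 to 84.4%) were listed in undifferentiated cells, 68.1% (60.6 to 74.7%) in untreated cells and 59.0% (51.4 to 66.2%) in treated cells. The 646 other coding motifs of the last exons were listed at 67.3% (63.6 to 70.8%), 72.4% (68.9 to 75.8%) and 73.8% (70.3 to 77.1%), and the 392 non-coding motifs at 76.0%, 75.5% and 76.0%. Linker reads numbered 3509, 3835 and 2170, with log2 ratios over the undifferentiated sample of -0.09 (-0.15 to -0.02) and -0.40 (-0.48 to -0.32), whereas the other coding motifs gave 0.10 and 0.09.

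Site by site, 38 of the 140 listed linker sites were present in undifferentiated and missing in treated cells, and 5 were the reverse. For the untreated sample these numbers were 26 and 8. Among the 534 other coding sites, 43 were present in undifferentiated and missing in treated cells, and 85 were the reverse. The 38 linker sites came from 30 genes, and 23 of the 38 had 10 or more reads in the undifferentiated sample. The 21 linker motifs of high CpG windows were listed at 52.4%, 52.4% and 28.6%. The linker motifs of intermediate windows were listed at 89.0%, 75.3% and 69.9% and the other coding motifs of such windows at 71.3%, 77.0% and 80.9%. In low CpG windows, linker motifs were listed at 76.4%, 65.3% and 56.9%, and other coding motifs at 79.3%, 79.7% and 78.0%.

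**Figure D5:**
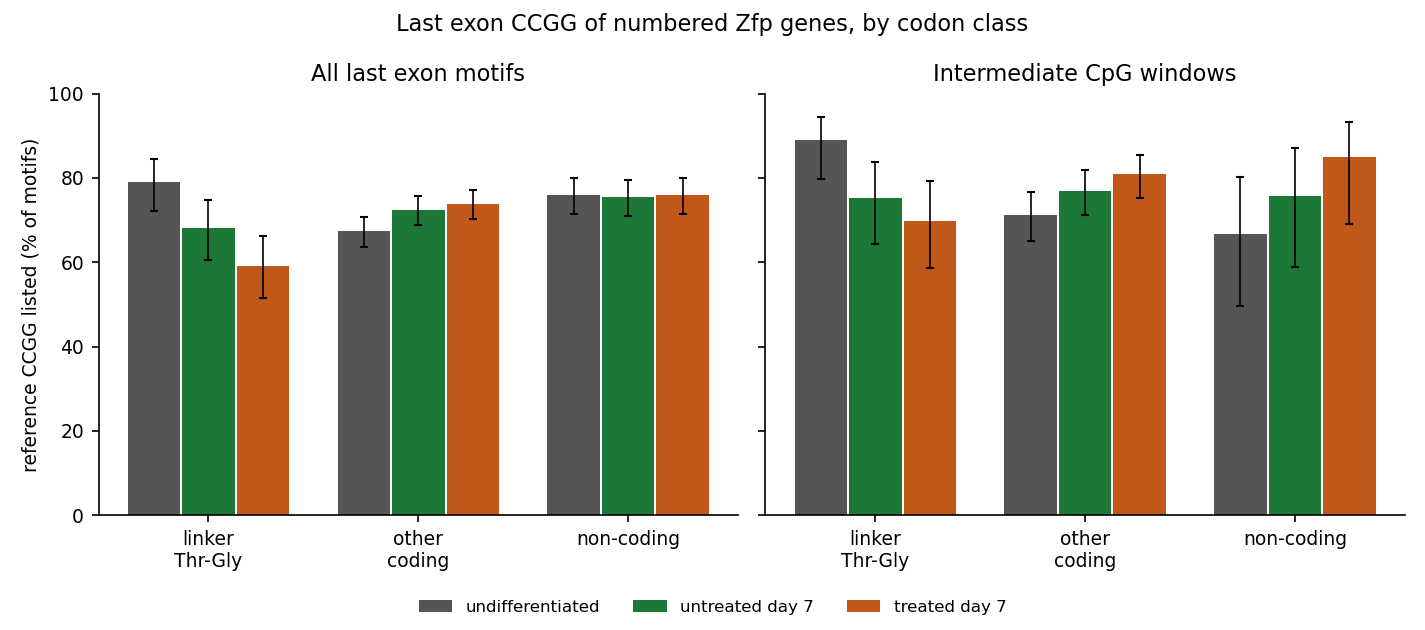
Percent of last exon reference CCGG listed in each library (y axis) for linker Thr-Gly codons, other coding positions and non-coding positions (x axis), over all last exon motifs (left) and in intermediate CpG windows (right), with 95% Wilson intervals that cover counting error only. Linker motifs go from 78.9% to 68.1% and 59.0%, and other coding motifs from 67.3% to 72.4% and 73.8%.

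Linker sequences resemble each other, as the second set of sequences shows, and this bears on which reads map uniquely. When 28 bases around each motif were compared with those of every other CCGG in the genome, 67 of the 166 linker motifs differed from all of them at 3 or more bases, compared with 606 of the 646 other coding motifs. Those 67 were listed at 86.6%, 80.6% and 65.7%, with log2 read ratios of 0.06 and -0.34. The other 99 were listed at 73.7%, 59.6% and 54.5%, with ratios of -0.23 and -0.45. Similar sequences without a CCGG were not compared, and the part of mapping in the linker values was not tested. After thinning to the smallest CCGG total, linker motifs were listed at 77.7%, 62.7% and 59.0% and other coding motifs at 64.9%, 65.5% and 73.8%.

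The linker motif also occurs in genes of other names. In the last exons of 46 other protein-coding genes, 57 such motifs were listed at 45.6%, 43.9% and 43.9%, with log2 read ratios of -0.60 and -0.31. Other coding motifs of linker-bearing genes of other names were listed at 60.4%, 66.3% and 71.1%, with ratios of 0.04 and 0.10. In the numbered Zfp genes the treated ratio of linkers was the lower one, and their untreated ratio of -0.09 was close to 0. In the genes of other names the share of listed linker motifs was nearly level.

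The individual linker sites spanned both directions. The sites shown above for Zfp952 (69, 149 and 83 reads), Zfp612 (92, 142 and 64), Zfp26 (85, 144 and 58) and Zfp157 (76, 115 and 34) were highest in the untreated sample. Zfp810 had 79, 94 and 65 reads, and the remaining one of the 6 deepest, in Zfp35, had 106, 102 and 57. In Zfp180, the linker site shown above had 85, 0 and 0 reads, and a second coding site of that exon at chr7:24105990-24105993 had 68, 0 and 0. The entire last exon of Zfp180 had 542, 424 and 256 reads. Zfp61, in the same chain on chromosome 7, had a coding site at chr7:24291385-24291388 with 46, 0 and 0 reads. Its sequence reads as a linker with Ser in place of Pro, so it was counted as other coding.

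Zfp7 had linker sites and other coding sites in a single exon. Its 5 listed linker sites had 21, 12, 7, 6 and 0 reads in undifferentiated cells. The site with 12 reads was the only linker site of the exon listed in treated cells, with 5 reads, and the site with 0 reads the only one in untreated cells, also with 5 reads. A coding site of Zfp7 outside the linkers, at chr15:76890809-76890812, had 53, 96 and 48 reads, and another, at chr15:76890319-76890322, had 29, 43 and 25. Most of these linker sites were close to the cutoff of 5 reads in undifferentiated cells, and an unlisted site can hold up to 4 reads. Both coding sites were deeper, and were picked after their values were seen.

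Single sites of other last exons were listed on day 7 alone. A coding site of Zfp286 at chr11:62779905-62779908 had 0, 45 and 44 reads. A non-coding site of Zfp41 at chr15:75628235-75628238 had 0, 26 and 43 reads, and a coding site of Zfp619 at chr7:39537525-39537528 had 0, 16 and 43. The Zfp619 sequence reads as a linker with Ala in place of Thr, so it was counted as other coding. A last exon site of Zfp467 had 0, 22 and 35 reads. In the rest of the genes, the deepest sites of this kind were a pair in Zfp407, with 0, 56 and 52 reads and 0, 62 and 21 reads. Single sites of Zfp143 (0, 26 and 46 reads) and Zfp536 (0, 28 and 44) were likewise listed on day 7 alone. A site of Zfp512 at chr5:31478315-31478318 went the other way, with 103, 0 and 0 reads. So did another site of Zfp407, with 84, 0 and 0, and a site of Zfp277 at chr12:40393263-40393266, with 81, 0 and 0. A site of Zfp82 had 76, 0 and 0 reads, and a last exon site of Zfp474 had 50, 0 and 0. Promoter sites listed in undifferentiated cells alone were shallower, with 22 reads in Zfp335, 22 in Zfp12 and 19 in Zfp831 after the Zfp773 site shown above. Sites of the rest were, after the Zfp992 promoter site, the deepest of the 6209. They lay in Zfp982 (331, 252 and 179 reads), Zfp990 (108, 238 and 215), Zfp936 (188, 186 and 134) and Zfp992 (147, 216 and 112). Of the 6209 sites, 136 are not CCGG in the reference. Among these are the Zfp982 site, this site of Zfp992 and the Zfp407 site with 0, 56 and 52 reads.

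Genes with known roles were named whatever their values. Their regions are given where they were called, and otherwise by the promoter or the last exon. Zfp57, which protects imprints, had 11, 14 and 9 promoter reads and 86, 77 and 44 last exon reads. Zfp809 and Zfp932, which repress retroviral elements, had no listed promoter site in any library, among 4 and 5 motifs. The last exon of Zfp809 had 73, 70 and 67 reads. Zfp568, a repressor of a placental Igf2 transcript, had 172, 215 and 167 promoter reads and 178, 186 and 113 last exon reads. Of these 4 KRAB genes, Zfp568 alone had enough promoter reads to be compared, and its ratios were 1.08 and 1.19.

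Among genes of the pluripotent state, Zfp281 had 6, 16 and 24 promoter reads, Zfp462 had 172, 143 and 119, and Zfp706 had 0, 5 and 0. The last exon of Zfp706 had 23, 0 and 0 reads and was called lower in both day 7 samples, with 4 reads in place of 0. Zfp296 had 42, 20 and 27 reads in its last exon, where Zfp819 had 114, 85 and 41. Zfp143, an activator that binds promoters, had 0, 35 and 5 promoter reads at 4 sites. Zfp598, a ubiquitin ligase of collided ribosomes, had 20, 64 and 30 promoter reads and 120, 115 and 43 reads at its single last exon CCGG. The rest of Zfp207, which encodes a spindle protein, had 104, 100 and 24 reads, a value called lower in the treated than in either other sample, while its promoter had 0, 5 and 0 and its last exon 22, 33 and 34. Zfp91, a ubiquitin ligase, had no promoter reads and 87, 80 and 44 in its last exon.

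Developmental regulators had values as follows. Zfp217, an oncogene product associated with CoREST, had 124, 140 and 122 promoter reads. Zfp423, a regulator of adipocyte and neural development, had 108, 91 and 93, Zfp335 had 33, 28 and 29, Zfp516 had 6, 19 and 18, and Zfp521 had 0, 7 and 6. The last exon of Zfp423 had 26, 30 and 45 reads and was called higher in the treated than in either other sample. The last exon of Zfp36 had 109, 145 and 97 reads, close to level on the scaled values, in contrast to its promoter. Zfp352 had no CCGG in the gene or within 1 kb of it.

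KRAB genes and the other numbered Zfp genes had promoters of different CpG content. In KRAB genes, 19.1% of 1154 promoter motifs lay in high CpG windows and 39.4% in low CpG windows, compared with 54.8% of 2023 motifs and 243 of them in the other genes. Over all promoter motifs, KRAB genes had 16.6%, 21.8% and 24.7% listed and the others 7.76%, 13.8% and 17.004%. Within high CpG windows the 2 groups were closer, with 1.82%, 9.09% and 11.4% of KRAB motifs and 1.08%, 6.76% and 7.66% of the others listed. In low CpG windows the order was the opposite, with 31.6%, 35.8% and 37.1% of KRAB motifs and 44.4%, 50.6% and 56.0% of the others listed, and the surrounding 30 bases were unique for 74.3% and 98.4% of these motifs. Among the unique ones the groups were closer, with 42.3%, 46.7% and 49.1% of KRAB motifs and 45.2%, 51.5% and 56.9% of the others listed. The log2 read ratios in high CpG windows were 2.97 and 3.82 for KRAB genes, from 21, 191 and 242 reads, and 2.53 and 3.27 for the others, from 93, 624 and 731 reads. In intermediate windows they were 0.47 and 1.17 for KRAB genes and 0.17 and 1.03 for the others.

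In last exons the groups differed in order. Of 535 motifs in KRAB genes, 72.1%, 70.7% and 68.04% were listed, whereas in the other genes 71.5%, 74.6% and 76.1% of 669 motifs were listed. In the rest of the genes, the 30 bases around the motif were unique for 64.9% of KRAB gene motifs and 91.8% of the others, and 48.4% and 69.0% were listed in the undifferentiated sample. Among motifs with unique surroundings, these shares were 74.6% and 75.1%. By number of fingers, promoter log2 ratios for untreated and treated cells were 0.20 and 0.80 in the 15 genes without a finger pattern. They were 0.27 and 0.69 with 1 to 5 fingers, 0.19 and 0.48 with 6 to 11, and 0.24 and 0.37 with 12 or more. The 15 genes had only 271, 362 and 384 promoter reads. Zfp503 gave 0, 15 and 67 of these and Zfp36 gave 0, 21 and 60, so the treated value of this group rests heavily on these genes.

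Clusters differed in the size of the promoter difference. Of the 24 chains with at least 50 promoter reads in a library, 17 had a higher scaled value in the untreated than in the undifferentiated sample and 20 had a higher value in the treated sample. These numbers were 9 and 10 of the 24 on the mapped-read scale. Most promoters of all autosomal protein-coding genes were likewise higher on the CCGG scale, counted by gene and not by chain. Of those compared, 6563 of 10948 were higher in the untreated and 7930 of 11423 in the treated than in the undifferentiated sample. The chain of 18 KRAB genes from Zfp677 to Zfp946 (chr17:21383748-22456689) had 110, 132 and 192 promoter reads, with log2 ratios of 0.05 and 1.10. The 10 genes from Zfp871 to Zfp101 (chr17:32765496-33394641) had 98, 99 and 160 reads, with ratios of -0.20 and 1.002. The 5 genes from Zfp560 to Zfp846 (chr9:20345136-20605409) had 18, 26 and 66 reads, with ratios of 0.32 and 2.17. In these 3 chains the treated value stood apart from the other two.

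Other chains differed in how the 3 libraries were ordered. The 19 genes from Zfp712 to Zfp273 (chr13:67038596-67827002) had 394, 515 and 314 promoter reads, with ratios of 0.17 and -0.03. The 8 genes from Zfp553 to Zfp629 (chr7:127233061-127615797) had 329, 524 and 610 reads, with ratios of 0.46 and 1.19. The 4 genes from Zfp954 to Zfp772 (chr7:7114690-7209998), Zfp773 among them, had 167, 85 and 91 reads, with ratios of -1.19 and -0.58. In the 3 genes from Zfp992 to Zfp993 (chr4:146449023-146658160), the Zfp992 site shown above gave 207, 559 and 438 of the 331, 658 and 514 reads. The 4 genes from Zfp968 to Zfp966 (chr2:175372436-175931100) had 21 promoter motifs, none of them unique, and no listed promoter site.

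Partners of KRAB zinc finger proteins and of methylation upkeep were followed at their promoters, as a list of 16 genes. For the untreated sample, 10 had enough reads, none was at least 2-fold higher and 1 was lower than in the undifferentiated sample, against 20.8% and 8.09% of all genes. For the treated sample, 4 of 11 were higher and 3 lower, against 35.0% and 6.77%. The higher ones were Pphln1, a subunit of the HUSH silencing complex, with 14, 17 and 72 reads, the DNA methyltransferase genes Dnmt3a (25, 30 and 50) and Dnmt3b (0, 5 and 25), and Dnmt3l (77, 156 and 130), which encodes a cofactor of these enzymes. The lower ones were Smarcad1, a chromatin remodeller, with 26, 5 and 0 reads, Morc3, a chromatin ATPase, with 43, 33 and 5, and Cbx1, which encodes a heterochromatin protein, with 28, 18 and 8. Smarcad1 was also the lower one in the untreated sample. Trim28 had 0, 0 and 8 reads. The Dnmt3b call rests on 4 reads set for its entire promoter in undifferentiated cells, over 4 sites that were listed in at least 1 library. With scaling to mapped reads, Dnmt3a and Dnmt3l were no longer called, with folds of 1.52 and 1.28. On that scale 2 of 11 were higher and 6 lower in the treated sample, against 21.9% and 19.8% of all genes. Those added to the lower ones were Uhrf1, which brings DNMT1 to newly copied DNA (168, 111 and 71 reads), Dnmt1, the maintenance methyltransferase (71, 83 and 41), and Fam208a, of the HUSH complex (29, 43 and 15). For the untreated sample 3 of 10 were lower on that scale, Smarcad1, Cbx1 and Uhrf1, against 13.4% of all genes. None was higher, against 15.3% of all genes.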

How the data were processed

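DNA methylation was measured by MethylRAD in 3 libraries of E14Tg2A cells (undifferentiated, untreated and treated). The authors mapped reads with an FspEI site to GRCm38 (mm10), kept unique alignments and deposited a read count per site without normalization, with a minimum of 5 reads. The submitters' processing notes name Bowtie2 2.3.3 and FastQC 0.11.3. The deposited RPM values are the same counts divided by mapped reads, and were used only to recover those totals.

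CCGG counts were assigned to GENCODE M21 basic protein-coding genes, first to promoters, then to last exons. Reads were summed and scaled per 1000000 CCGG reads. Windows of 500 bp with 5 bp of overlap were called high where the CpG ratio passed 0.75 with over 55% GC, and low where it was under 0.48. Shares have 95% Wilson intervals and ratios exact binomial intervals. With 1 library per condition, called means past 2-fold with 20 reads. Genes named were the 5 highest and 5 lowest folds of each day 7 library over the undifferentiated library and the 3 highest and 3 lowest between the day 7 libraries, with 50 reads, together with 20 genes of known role. Sites named were the deepest of each region that were listed on day 7 or in undifferentiated cells alone, and the deepest linker sites. Those listed on day 7 alone were ranked by scaled reads. Chains and single sites within named genes were picked after their values were seen. The genes and lists were chosen with earlier results of these data known, and the closest-match comparison of linkers, the linkers of other genes, the promoter classes under other settings, the calls on the mapped-read scale, the sites present in 1 list and missing from another in other genes, the equal counts between libraries and the sites of more than 1000 reads were examined after the data were seen. Functions were tested on simulated data. Scripts ran in Python 3.11.15 with SciPy 1.17.1, pandas 2.3.3, matplotlib 3.10.9 and numpy 2.4.6. CCAGG and CCTGG counts entered no comparison.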

Additional observations from a re-analysis of the deposited data

Results flagged for a closer look

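CCAGG and CCTGG sites were left out of the comparisons above, and much of their counts repeated between libraries. At numbered Zfp genes, 5160 CCAGG sites with 69559 reads were listed in the treated library. The undifferentiated and untreated libraries listed 1640 CCAGG sites each, with the same total of 25699 reads, and these were the same 1640 positions with the same count at each. CCTGG sites numbered 1609 in each of the 3 libraries, with 25721 reads in each and the same count at 1607 or more of the positions in every pair of libraries. CCGG counts did not repeat in this way. Of the 4520 CCGG sites of these genes that undifferentiated and untreated cells shared, 122 had equal counts. The CCAGG and CCTGG values are therefore not read as a difference between conditions, and which library they belong to was not determined. The cause was not tested.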

How the results depend on the processing

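No paired analysis was possible because every condition was 1 library. A count under 5 reads was not listed, which limits all sites near that depth. At promoters (log2 ratios of 0.22 and 0.47 for untreated and treated), scaling to mapped reads reversed the direction (-0.095 and -0.229), and scaling by the median ratio of shared sites gave 0.15 and 0.39. Unlisted sites set to 4 reads gave 0.0857 and 0.301, counts of at least 10 gave 0.16 and 0.26, and promoters of 500 bp gave 0.37 and 0.82. Of 4 alternatives added after seeing the data, high CpG windows alone gave 2.62 and 3.39, and leaving out the deepest promoter site stayed within the counting interval. At last exons, scaling to mapped reads gave -0.27 and -0.67 and scaling by the median ratio -0.0248 and -0.0521, against 0.05 and 0.02. In the rest of the genes these gave -0.33 and -0.72, and -0.0869 and -0.101, and counts of at least 10 gave -0.0554 in the treated sample. The share of sites in every library was 42.2% at promoters, 60.2% at last exons and 66.5% in the rest with counts of at least 10, 21.1% with promoters of 500 bp, and 72.2% in the rest after thinning. The cause was not tested.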
